A study of Mus musculus with 4 samples.

Results

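The genes described here are the 4 opioid receptor genes, Oprm1 (mu), Oprd1 (delta), Oprk1 (kappa) and Oprl1 (the nociceptin receptor), and 2 genes for opioid peptide precursors, Pdyn (prodynorphin) and Pnoc (prepronociceptin). They are a fixed set of gene symbols, and the set was chosen with earlier results of these data known. All 6 were found, among 15409 gene rows. Their levels were read from RNA sequencing of brain septal tissue, which lies between the lateral ventricles and next to the striatum, of mice that had all been restrained before they were killed. The genotypes compared were TCRb-/-, which cannot make the T cell receptor beta chain, and wild type (WT). Each mouse was held in a DecapiCone, a flexible plastic cone, for 30 min on 3 days, and tissue was taken 1.5 h after the last session. No unrestrained mice are among the libraries, so that no comparison below measures an effect of restraint.

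There were 4 libraries, 2 per genotype, each a pool of tissue from 4 to 5 animals, and each genotype had 1 library in each of 2 labelled experiments. Replicate 1 and replicate 2 are the libraries of experiment 1 and experiment 2. Mice without the beta chain lack alpha-beta T cells but can still make gamma-delta T cells. The RNA came from tissue lysate that had been cleared by centrifugation, so that RNA held in nuclei was largely removed before extraction.

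Opioid receptors are G protein-coupled receptors that act through inhibitory G proteins: they lower cyclic AMP, open inwardly rectifying potassium channels and close presynaptic calcium channels. Their ligands are cut from large precursors. Prodynorphin yields dynorphins and neoendorphins, which prefer the kappa receptor, proenkephalin (Penk) yields enkephalins, which prefer the delta and mu receptors, and prepronociceptin yields nociceptin, which binds the nociceptin receptor and not the other 3 with high affinity. Dynorphin in the striatum is made mainly by neurons that carry the D1 dopamine receptor, and kappa signalling is known for its part in the aversive side of stress.

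The ligands these genes encode can be seen in the coding sequence. The stretches below are shown because they are the ends of the peptides that the receptors recognise, and because they tell the classical opioid ligands from nociceptin. They come from the GENCODE M21 transcripts Pdyn-201 (248 codons) and Pnoc-201 (187 codons), genome build GRCm38, each with 24 bases from 5′ to 3′, and each follows a pair of codons for basic residues, where precursors are cut. Capitals mark the first 4 codons. In Pdyn they read tyrosine, glycine, glycine and phenylalanine, the opening of every classical opioid peptide, and in Pnoc the first is phenylalanine.
Pdyn unit 1, start of alpha-neoendorphin: TATGGCGGCTTTttgcgcaaatac
Pdyn unit 2, start of dynorphin A: TATGGGGGCTTCctgcggcgcatt
Pdyn unit 3, start of dynorphin B: TATGGTGGTTTCctgcggcgtcag
Pnoc unit, start of nociceptin: TTTGGGGGCTTCaccggggcccgg

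The 3 Pdyn units start at codons 166, 202 and 221 and lie in exon 4 of 4, at chr2:129688229-129688252, chr2:129688121-129688144 and chr2:129688064-129688087 on the minus strand. The Pnoc unit starts at codon 141, in exon 3 of 4, at chr14:65404869-65404892 on the minus strand. The dynorphin A and dynorphin B units share 18 of 24 bases, and each shares 14 with the alpha-neoendorphin unit. The nociceptin unit shares 10, 14 and 13 of 24 bases with Pdyn units 1, 2 and 3.

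The libraries held between 19988137 and 26210790 reads, and 1 read was worth between 0.0382 and 0.05 CPM, the unit in which reads are scaled so that every library has the same total. Trbc2, a constant segment of the deleted chain, was at 0 CPM in both TCRb-/- libraries, where 0 reads allow up to 0.122 and 0.15 CPM, and at 6.45 and 3.85 CPM in WT. Of 14 septum genes 13 were listed (all but Drd3), and their summed level lay between 474 and 517 CPM in all 4 libraries. Dgkg alone gave 208 to 245 CPM of that sum, so that its evenness says little about the other septum genes. Between experiments 2 of the 13 were called higher (Zic1 and Zic4), 1 lower (Ano2) and 10 not called. Levels of neighbouring regions were uneven: 15 of 16 striatum genes (all but Gpr52) summed to 4125 CPM in TCRb-/- replicate 1, 912 in TCRb-/- replicate 2, 3693 in WT replicate 1 and 2117 in WT replicate 2. Of 14 genes of the hypothalamus and preoptic area 9 were listed and Hcrt, Kiss1, Nkx2-1, Npvf and Pmch were not. The listed ones summed to 85.9, 410, 97.4 and 310 CPM in the same order. All 14 genes of the cortex and hippocampus were listed and summed to 593, 370, 660 and 385 CPM in that order.

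Per length of transcript, the nociceptin receptor and the 2 precursors stood above the other receptors. Levels per kilobase divide CPM by the length of all annotated exons of a gene, and are given as the mean ± SD of the 4 libraries. Pdyn had 35.5 ± 15.1 CPM per kilobase, Oprl1 28.6 ± 3.54 and Pnoc 19.2 ± 4.59. The ranges of Pdyn (15.8 to 51.4) overlapped those of Oprl1 (25.4 to 32.6) and Pnoc (13.5 to 23.6), whereas Oprl1 was above Pnoc in every library-to-library comparison. Oprk1 followed with 1.85 ± 0.388, Oprd1 with 0.675 ± 0.318 and Oprm1 with 0.0982 ± 0.0359 CPM per kilobase, and neighbours in this order did not overlap. For comparison, Penk had 535 ± 250 and Pomc, the precursor of beta-endorphin, 3.65 ± 0.625 CPM per kilobase. Of the summed receptor level per kilobase, Oprl1 made up 89.4% and 95% in TCRb-/- replicates 1 and 2 and 88.5% and 92.6% in WT. Oprm1 has an annotated exon length of 8037 bases, in which many alternative exons are counted, against 3753 for Oprl1, and 96 of its bases overlap exons of Ipcef1. Whether counting used strand is not given in the sources used here.

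**Figure D1:**
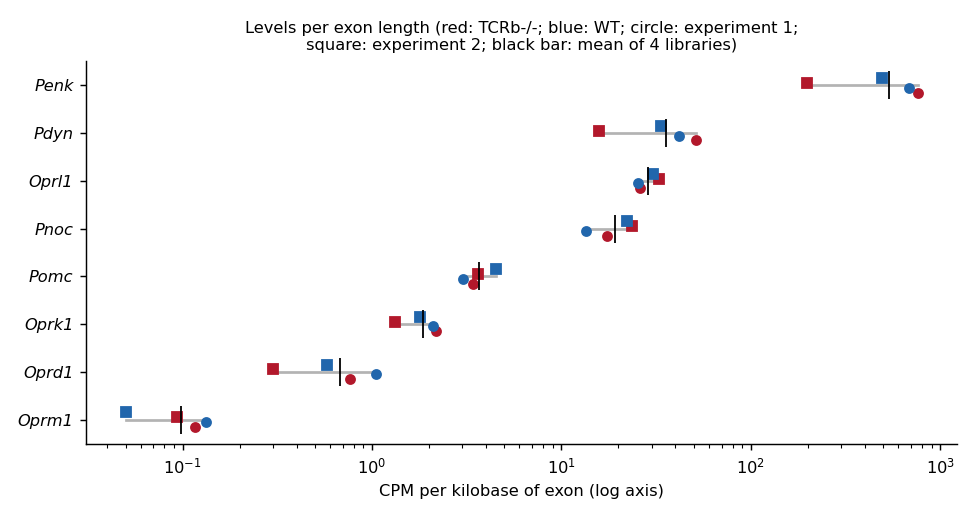
Level per kilobase of annotated exon (CPM per kilobase, log axis) of the 6 genes and of Penk and Pomc, with 1 point per library (red TCRb-/-, blue WT, circles experiment 1, squares experiment 2), a grey line over the range and a black bar at the mean. Pdyn, Oprl1 and Pnoc lie at 19.2 to 35.5 on average, and Oprk1, Oprd1 and Oprm1 at 1.85, 0.675 and 0.0982.

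Oprm1 encodes the mu receptor, the target of morphine and of beta-endorphin. It lies at chr10:6758506-7038198 on the plus strand of GRCm38 (ENSMUSG00000000766.18). Its reads numbered 23 and 15 in TCRb-/- replicates 1 and 2 and 28 and 9 in WT replicates 1 and 2. These are 0.935 CPM (exact 95% Clopper-Pearson interval 0.593 to 1.4), 0.75 (0.42 to 1.24), 1.07 (0.71 to 1.54) and 0.403 (0.184 to 0.764). All intervals printed here are for counting error only and leave out the spread between pools of mice. They treat reads as independent, which amplified reads are not, so that they may be too narrow even for counting error. Both libraries of experiment 1 were above both of experiment 2, but the ratio of experiment 2 to experiment 1 had an interval that left out 1 only within WT (0.377, 0.156 to 0.821) and not within TCRb-/- (0.802, 0.389 to 1.61). With a mean under 1 CPM, Oprm1 did not pass the filter on low values, so that 5 of the 6 genes were tested. Fitted without that filter, it differed by 0.11 on the log2(CPM + 1) scale between genotypes (TCRb-/- minus WT, SE 0.25, limma adjusted p 1) and by -0.35 between experiments (2 minus 1, SE 0.18, adjusted p 0.204). A log2(CPM + 1) difference understates the change of low genes.

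Oprd1 encodes the delta receptor, bound by enkephalins. It lies at chr4:132110726-132144486 on the minus strand (ENSMUSG00000050511.1). It had 3.09 CPM (2.44 to 3.87) and 1.2 CPM (0.769 to 1.79) in TCRb-/- replicates 1 and 2, and 4.23 (3.48 to 5.1) and 2.33 (1.74 to 3.05) in WT, from 24 to 111 reads. Both libraries of experiment 1 were above both of experiment 2, and TCRb-/- was below WT in each experiment, while the genotypes overlapped. The difference between experiments was -0.77 on the log2(CPM + 1) scale (SE 0.24), with a limma adjusted p of 0.0536. With genotype as a block, which uses the pairing of the libraries, it was called (SE 0.19, adjusted p 0.0227). Without WT replicate 2 it was -1.07 and was also called (adjusted p 0.00376), and without TCRb-/- replicate 2 it was -0.48 and was not (adjusted p 0.189). TCRb-/- over WT was 0.73 (0.538 to 0.986) in experiment 1 and 0.516 (0.304 to 0.853) in experiment 2. The genotype difference was -0.48 (SE 0.39, adjusted p 1), and with the experiment as a block its adjusted p was 0.848, so that it did not pass. It was -0.92 without TCRb-/- replicate 1 and -0.028 without TCRb-/- replicate 2, and neither was called (adjusted p 0.514 and 1).

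Oprk1 encodes the kappa receptor, the main target of dynorphins. It lies at chr1:5588466-5606131 on the plus strand (ENSMUSG00000025905.13). It had 19.9 CPM (18.2 to 21.8) and 12.1 CPM (10.6 to 13.7) in TCRb-/- replicates 1 and 2, and 19.2 (17.6 to 21) and 16.5 (14.8 to 18.2) in WT. TCRb-/- replicate 2 was the lowest library, with an interval below those of the other 3. Both libraries of experiment 2 were below both of experiment 1, and the genotypes overlapped. The difference between experiments, -0.44 (SE 0.15), did not pass the threshold (limma adjusted p 0.0668). With the block it had an adjusted p of 0.0516. Without WT replicate 2 it was -0.65 and was called (adjusted p 0.00539), and without TCRb-/- replicate 2 it was -0.24 and was not (adjusted p 0.311). The genotype difference was -0.18 (SE 0.26, adjusted p 1), and TCRb-/- over WT was 1.04 (0.913 to 1.18) in experiment 1 and 0.736 (0.623 to 0.868) in experiment 2.

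Oprl1 encodes the nociceptin receptor. It lies at chr2:181715016-181720985 on the plus strand (ENSMUSG00000027584.16). It was the most even of the 6 genes, with 97.1 CPM (93.2 to 101) and 122 CPM (118 to 127) in TCRb-/- replicates 1 and 2 and 95.3 (91.6 to 99.2) and 115 (110 to 119) in WT. Both libraries of experiment 2 were above both of experiment 1, and the genotypes overlapped. Oprl1 was 1.26-fold (1.19 to 1.33) higher in experiment 2 within TCRb-/- and 1.2-fold (1.14 to 1.27) within WT. The difference between experiments, 0.30 (SE 0.07), passed the threshold (limma adjusted p 0.02). The call was lost when TCRb-/- replicate 1, TCRb-/- replicate 2 or WT replicate 1 was left out, with adjusted p of 0.0563, 0.107 and 0.0653. The genotype difference was 0.06 (SE 0.17, adjusted p 1).

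**Figure D2:**
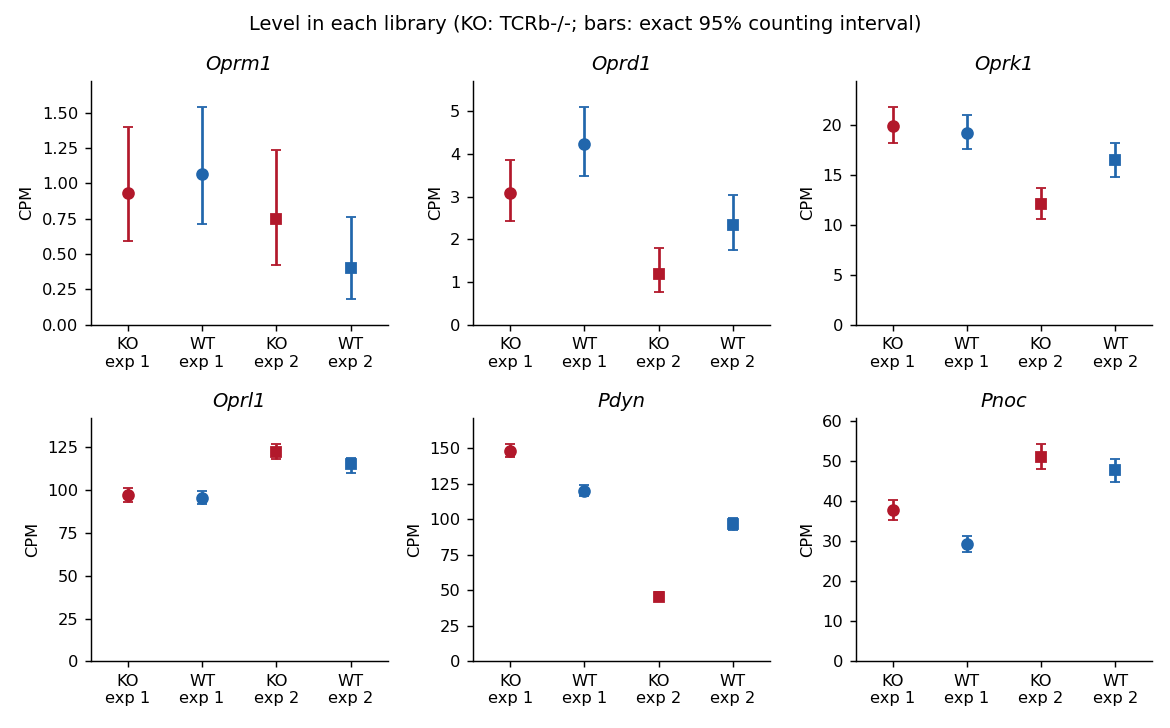
Level in CPM (linear axes from 0, a scale for each gene) of the 6 genes in the 4 libraries, with exact 95% counting intervals, by genotype and experiment. Pdyn, Oprd1, Oprk1 and Oprm1 are lower and Oprl1 and Pnoc higher in both libraries of experiment 2.

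Pdyn is the dynorphin precursor. Its highest library was 3.25 times its lowest, beside 3.53 times for Oprd1. It lies at chr2:129686565-129699844 on the minus strand (ENSMUSG00000027400.11). It had 148 CPM (144 to 153) and 45.6 CPM (42.7 to 48.7) in TCRb-/- replicates 1 and 2, and 120 (116 to 124) and 96.6 (92.6 to 101) in WT. TCRb-/- held both the highest and the lowest library, and WT lay between them. Pdyn in experiment 2 was 0.307 of its level in experiment 1 within TCRb-/- (0.285 to 0.33) and 0.807 within WT (0.763 to 0.852). The difference between experiments was -0.99 (SE 0.29) and passed the threshold (limma adjusted p 0.0429). Its size fell to -0.46 without TCRb-/- replicate 2 and grew to -1.53 without WT replicate 2, both still past the threshold, with adjusted p of 0.0148 and 8.78e-08. Without TCRb-/- replicate 1 it was -0.84 and without WT replicate 1 -1.15, and neither passed (adjusted p 0.171 and 0.0856).

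The order of the genotypes in Pdyn turned between experiments. TCRb-/- over WT was 1.24 (1.18 to 1.3) in experiment 1 and 0.472 (0.437 to 0.511) in experiment 2, and neither interval reached 1. A test of that difference has no residual degrees of freedom with 1 library per genotype and experiment, so it was not tested. Over both experiments the genotype means were 97.1 ± 72.7 CPM in TCRb-/- and 108 ± 16.4 CPM in WT (SD, n = 2 each), and the log2(CPM + 1) difference was -0.38 (SE 0.53, limma adjusted p 1). Without TCRb-/- replicate 1 it was -1.22 and was called (adjusted p 0.0123), and without TCRb-/- replicate 2 it was 0.46 and was not (adjusted p 1). The p-values measure only the spread between pools of mice, of which there were 2 per group, moderated over all tested genes. In the genotype fit without a block that spread holds the difference between experiments, because the 2 pools of a genotype came from different experiments. With the experiment as a block, the genotype difference of Pdyn had an SE of 0.26 and a limma adjusted p of 0.894. In tissue RNA, fewer cells of a type and less RNA per cell cannot be told apart.

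The level of Pdyn moved with the amount of striatum genes. All 15 listed striatum genes were lowest in TCRb-/- replicate 2, against 31.5% of all listed genes. In experiment 2, 14 of the 15 were called lower, against 14.7% of all tested genes, with a median difference of -1.37. The striatum list was chosen with earlier results of these data known, so that these shares are no independent support. TCRb-/- minus WT was 0.17 in experiment 1 and -1.22 in experiment 2 at the median of that list. As a share of the summed striatum genes Pdyn was 3.6% and 5% in TCRb-/- replicates 1 and 2 and 3.24% and 4.56% in WT, so that TCRb-/- replicate 2 was highest. That share is not particular to Pdyn, because the sum it is divided by was lowest in that library. Oprl1 was also highest there, at 2.35% and 13.4% in TCRb-/- replicates 1 and 2 and 2.58% and 5.42% in WT. As a share of the summed septum genes Pdyn stayed lowest in TCRb-/- replicate 2, with 30% and 8.82% in TCRb-/- and 24.6% and 20.4% in WT. Penk moved with Pdyn, with 8.36 and 7.12 Penk reads for each Pdyn read in TCRb-/- and 9.36 and 8.35 in WT. The part of the striatum genes in the differences of Pdyn was not tested.

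Pnoc, the nociceptin precursor, moved the other way. It lies at chr14:65400673-65425472 on the minus strand (ENSMUSG00000045731.6). It had 37.6 CPM (35.2 to 40.1) and 51 CPM (47.9 to 54.2) in TCRb-/- replicates 1 and 2, and 29.2 (27.2 to 31.3) and 47.6 (44.8 to 50.5) in WT. Both libraries of experiment 2 were above both of experiment 1, by 1.36-fold (1.24 to 1.48) within TCRb-/- and 1.63-fold (1.48 to 1.79) within WT. The difference between experiments was 0.56 (SE 0.12) and passed the threshold (limma adjusted p 0.0177). Without WT replicate 1 it was 0.38 and did not pass (adjusted p 0.0562). TCRb-/- was above WT in both experiments, by 1.29-fold (1.17 to 1.42) and 1.07-fold (0.982 to 1.17), while the genotypes overlapped. The genotype difference of 0.23 (SE 0.28) did not pass, with an adjusted p of 1, or of 0.848 with the experiment as a block. Genes of the hypothalamus and preoptic area, of the thalamus and of the choroid plexus were also higher in experiment 2, with median differences of 1.43, 0.96 and 1.31, and their part in the result for Pnoc was not tested.

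Because the precursors moved in opposite directions, their ratio set the libraries apart. There were 3.95 and 0.895 Pdyn reads for each Pnoc read in TCRb-/- replicates 1 and 2, and 4.1 and 2.03 in WT. Pdyn exceeded Pnoc in 3 libraries, and in TCRb-/- replicate 2 Pnoc exceeded Pdyn.

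**Figure D3:**
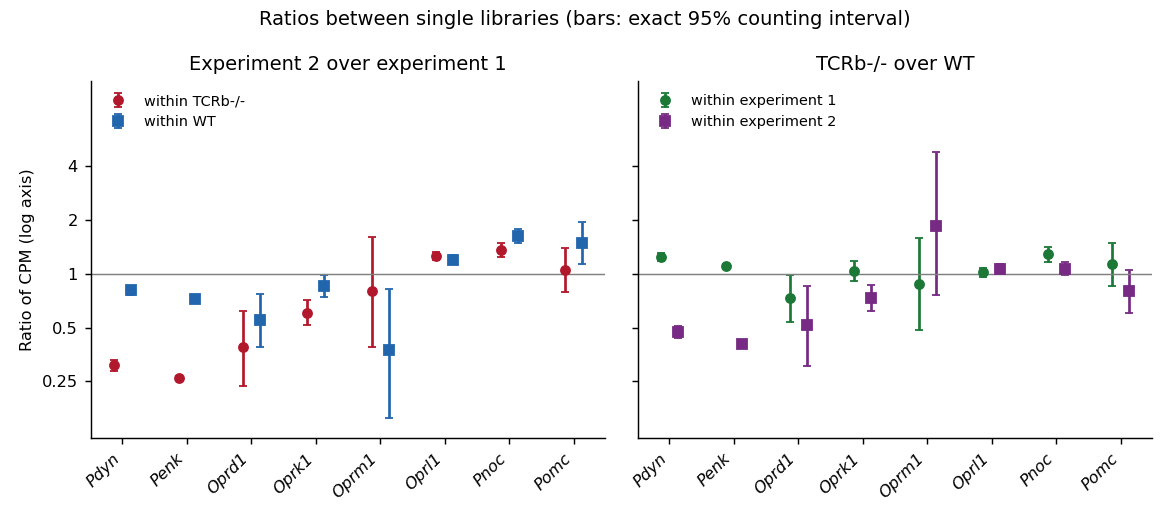
Ratio of CPM between single libraries (log axis) for the 6 genes, Penk and Pomc, with exact 95% counting intervals: experiment 2 over experiment 1 within each genotype (left), and TCRb-/- over WT within each experiment (right). Pdyn is at 0.307 and 0.807 on the left, and at 1.24 and 0.472 on the right, on both sides of 1.

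All 6 genes separated the libraries by experiment. With 1 library per genotype in each experiment, a gene that does so cannot also separate them by genotype. The 2 experiments did not overlap in 6 of 6 genes, against 65.4% of all listed genes: 4 were lower in experiment 2 and 2 higher, as were 36.0% and 29.4% of all genes. That the genotypes did not overlap in 0 of 6, against 18.6% of all listed genes, follows from this and is no separate result. The genotype difference had the same sign in both experiments in 3 of 6 (Oprd1, Oprl1 and Pnoc), against 51.5%. Of the 5 tested genes, 3 were called between experiments, 2 higher in experiment 2 (Oprl1 and Pnoc) and 1 lower (Pdyn), where 23.7% of the 13912 tested genes were called, 8.95% higher and 14.7% lower. With the block there were 4 calls, with Oprd1 added, against 24.7% of all genes. Without a mean-variance trend in the fit 0 of the 5 were called, against 4.52%. When TCRb-/- replicate 1, TCRb-/- replicate 2, WT replicate 1 or WT replicate 2 was left out, 1, 2, 0 and 5 of the 5 were called, against 10.1%, 13.1%, 11.8% and 24.4% of all genes.

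None of the 5 was called between genotypes by limma and none had an unadjusted p under 0.05, where 0% of all genes were called and 0.309% had such a p. With the experiment as a block, 2 of the 5 (Oprd1 and Pnoc) had an unadjusted p under 0.05, against 5.64% of all genes, and none was called, against 0.0144%. Leaving out TCRb-/- replicate 1 gave 1 call between genotypes (Pdyn), against 0.338% of all genes, and leaving out TCRb-/- replicate 2 gave 0, against 0.00719%. For a single gene, the smallest p of an exact permutation test with these 4 libraries is 0.333. The median difference of the 5 genes was -0.44 between experiments and -0.18 between genotypes, beside -0.03 and 0.00 over all tested genes.

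**Figure D4:**
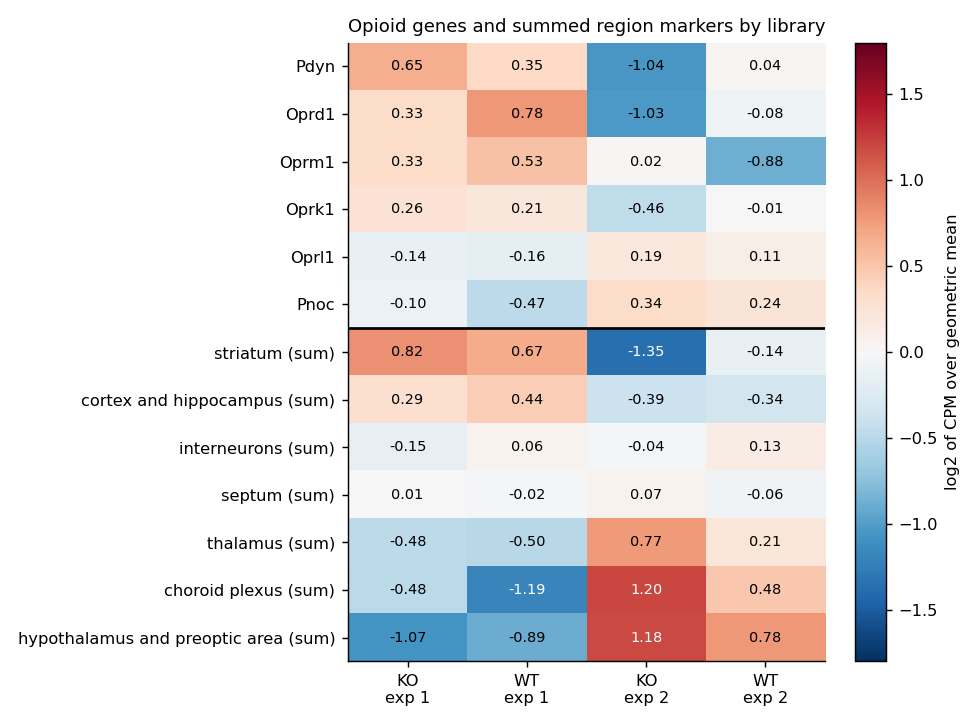
Level of the 6 genes and summed level of 7 lists of region or cell type genes in each library, as log2 of CPM over its geometric mean in the 4 libraries, with columns ordered by experiment. Pdyn at -1.04 and the striatum sum at -1.35 are lowest in TCRb-/- replicate 2 (KO, exp 2), and the septum sum stays between -0.06 and 0.07.

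A few genes lay close to Pdyn or Oprd1 in their profile over the 4 libraries, measured as the Euclidean distance between log2(CPM + 1) values centred on their mean. Closest to Pdyn were Rxrg (0.111), a retinoid receptor gene on the striatum list, Gprin3 (0.192) and Asic4 (0.215), an acid-sensing ion channel gene, and 2 of 11291 compared genes were within 0.2. For Rxrg, TCRb-/- replicate 1 had 168 CPM, TCRb-/- replicate 2 54.1, WT replicate 1 147 and WT replicate 2 107. Closest to Oprd1 were Fhl2 (0.111) and Egr2 (0.149), an immediate early transcription factor gene, with 11 of 11292 genes within 0.2. Oprd1 is low, and adding 1 CPM narrows its profile more than theirs. By CPM it ran from 1.2 to 4.23, or 3.53-fold, while Fhl2 ran from 13 to 30.4 and Egr2 from 5.8 to 15.6. These distances therefore hold only with 1 CPM added. The other 4 genes varied by less than 1 on the log2(CPM + 1) scale and were not compared.

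Promoter sequences are shown for Pdyn and Oprd1, the 2 genes of the 6 with the largest difference between experiments. They are the 250 bases before the RefSeq start site, on the gene's strand in build GRCm38.p6, from chr2:129699939-129700188 (minus) and chr4:132144487-132144736 (minus). The table held 4 of the 6 genes, and Oprk1 and Pnoc were not matched. Capitals mark a match to a searched motif.
Pdyn promoter: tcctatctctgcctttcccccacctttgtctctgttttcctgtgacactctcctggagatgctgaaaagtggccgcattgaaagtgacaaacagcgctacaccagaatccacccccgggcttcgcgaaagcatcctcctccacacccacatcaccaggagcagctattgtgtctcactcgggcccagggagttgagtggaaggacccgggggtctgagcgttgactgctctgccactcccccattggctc
Oprd1 promoter: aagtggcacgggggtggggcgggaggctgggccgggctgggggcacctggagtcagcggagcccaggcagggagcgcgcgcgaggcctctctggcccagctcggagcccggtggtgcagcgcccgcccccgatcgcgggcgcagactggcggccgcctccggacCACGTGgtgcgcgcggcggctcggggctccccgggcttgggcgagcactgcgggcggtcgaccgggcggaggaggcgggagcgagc

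Both promoters were searched on both strands for the cyclic AMP response element TGACGTCA, its shorter form TGACG, which lies within it, the E-box CACGTG and the AP-1 site TGANTCA. The only match was an E-box in Oprd1 that begins 86 bases before the start site, and 6.02% of 32817 promoters hold one. The other motifs are in 1.55%, 17.7% and 6.75% of promoters. The Oprd1 promoter had 80% G or C and 34 CpG, and the Pdyn promoter 57.2% and 8, beside medians of 52.4% and 6. A match is a description of the letters, and the absence of one says only that these letters are not in this window.

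The pathway around these genes was followed in 6 lists with 56 genes, of which 53 were listed and tested. Between experiments 5 were higher, 14 lower and 34 not called in experiment 2, so that 35.8% were called, beside 23.7% of all tested genes. These lists, too, were chosen with earlier results of these data known, so that this share is no independent support. By limma none was called between genotypes, against 0% of all genes, and none had an unadjusted p under 0.05, against 0.309%. With the experiment as a block, 5 of the 53 had such a p, against 5.64% of all genes, and none was called. Among the other ligands and receptors (Penk, Pomc, Ogfr, Ogfrl1 and Ackr3), only Penk was called. Its level was 1241 CPM in TCRb-/- replicate 1, 325 in TCRb-/- replicate 2, 1121 in WT replicate 1 and 806 in WT replicate 2, with a difference between experiments of -1.20 (SE 0.34, limma adjusted p 0.0393). That difference ran from -0.55 without TCRb-/- replicate 2 to -1.86 without WT replicate 2, both called, and the call was lost without TCRb-/- replicate 1 or WT replicate 1 (adjusted p 0.138 and 0.105). The genotype difference of Penk was -0.58 (SE 0.62, adjusted p 1), without TCRb-/- replicate 1 it was -1.55 and was called (adjusted p 0.00138), and without TCRb-/- replicate 2 it was 0.38 and was not. Pomc had 4.51, 4.75, 4.01 and 5.95 CPM in the same order, and its difference between experiments of 0.27 (SE 0.17) did not pass (adjusted p 0.277).

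Genes for the enzymes that cut and trim the precursors moved in both directions. Of 8 processing genes 2 were higher, 2 lower and 4 not called, beside 8.95% higher and 14.7% lower over all tested genes. Pcsk2, a prohormone convertase that cuts prodynorphin, was lower in experiment 2 by -0.47 (limma adjusted p 0.00752), with 124 and 94.9 CPM in TCRb-/- and 127 and 86.1 in WT. Pcsk1n, whose product inhibits the related convertase PCSK1, was higher by 0.54 (adjusted p 0.00598), with 612 and 869 against 552 and 823 CPM. Carboxypeptidase D (Cpd) was lower by -0.46 (adjusted p 0.0342). Of the 7 listed breakdown genes 1 was higher, 2 lower and 4 not called, beside the same shares of all genes, and Anpep and Enpep were not listed. Mme, or neprilysin, which cleaves enkephalins, had 16.8 and 4.8 CPM in TCRb-/- and 13.6 and 7.47 CPM in WT, lower in experiment 2 by -1.20 (adjusted p 0.0086). Ace was higher by 0.91 (adjusted p 0.0131) and Ece1 lower by -0.53 (adjusted p 0.0248).

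The lower calls in signalling genes included some that are abundant in the striatum. Striatum genes were not the only region genes lower in experiment 2. Of 14 genes of the cortex and hippocampus, 7 were called lower, 1 higher and 6 not called, with a median difference of -0.63. The part of either region in the signalling genes was not tested. In the inhibitory G protein list 1 of 10 was higher, 2 were lower and 7 not called, beside 8.95% higher and 14.7% lower over all tested genes. Gng7, a gamma subunit of striatal G proteins, had 1224 and 253 CPM in TCRb-/- and 1038 and 511 CPM in WT, lower in experiment 2 by -1.65 (limma adjusted p 0.00836). Gng3 was higher by 0.48 (adjusted p 0.00623) and Gnao1 lower by -0.32 (adjusted p 0.0116). Gnao1 was the only alpha subunit gene called: Gnai1 (-0.02), Gnai2 (0.14), Gnai3 (-0.17) and Gnaz (-0.02) were not. In the list of effector channels and cyclases 0 of 11 were higher, 3 lower and 8 not called, beside the same shares of all genes. Adcy5, the main adenylyl cyclase of the striatum, had 328 and 82.4 CPM in TCRb-/- and 292 and 160 in WT, lower by -1.42 (adjusted p 0.00976). Adcy1 was lower by -1.03 (adjusted p 0.00253), with 69.1 and 36 CPM in TCRb-/- and 71.6 and 31.9 in WT. Adcy3 was lower by -0.41 (adjusted p 0.0236).

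Among genes of receptor desensitisation 1 of 12 listed was higher, 4 were lower and 7 not called, beside 8.95% higher and 14.7% lower over all tested genes. Rgs9, which speeds the shut-off of G proteins in striatal neurons, had 159 and 36.1 CPM in TCRb-/- and 151 and 82 in WT, lower by -1.49 (limma adjusted p 0.0143). Rgs4 was lower by -0.94 (adjusted p 0.00235) and Adrbk2, a kinase that phosphorylates activated receptors, by -0.61 (adjusted p 0.0275). The named lower genes share with Pdyn and Penk the low value in TCRb-/- replicate 2 only in part: Pcsk2, Ece1, Adcy1, Adcy3 and Adrbk2 were lowest in WT replicate 2. Between genotypes, 7 of the 53 listed pathway genes had both TCRb-/- libraries beyond both WT libraries, a smaller share than the 18.6% of all listed genes. None of these 7 passed the threshold. They were Ackr3, a scavenger receptor that binds opioid peptides, Cpe and Dpp3, which trim and degrade them, Adcy6, the potassium channel genes Kcnj6 and Kcnj9, and Adrbk1. Each was higher in TCRb-/-, with log2(CPM + 1) differences from 0.04 (SE 0.17) for Ackr3 to 0.33 (SE 0.20) for Adcy6. They were picked for not overlapping, and their shared direction was not tested. The median genotype difference of all 53 was 0.04, beside 0.00 over all tested genes.

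**Figure D5:**
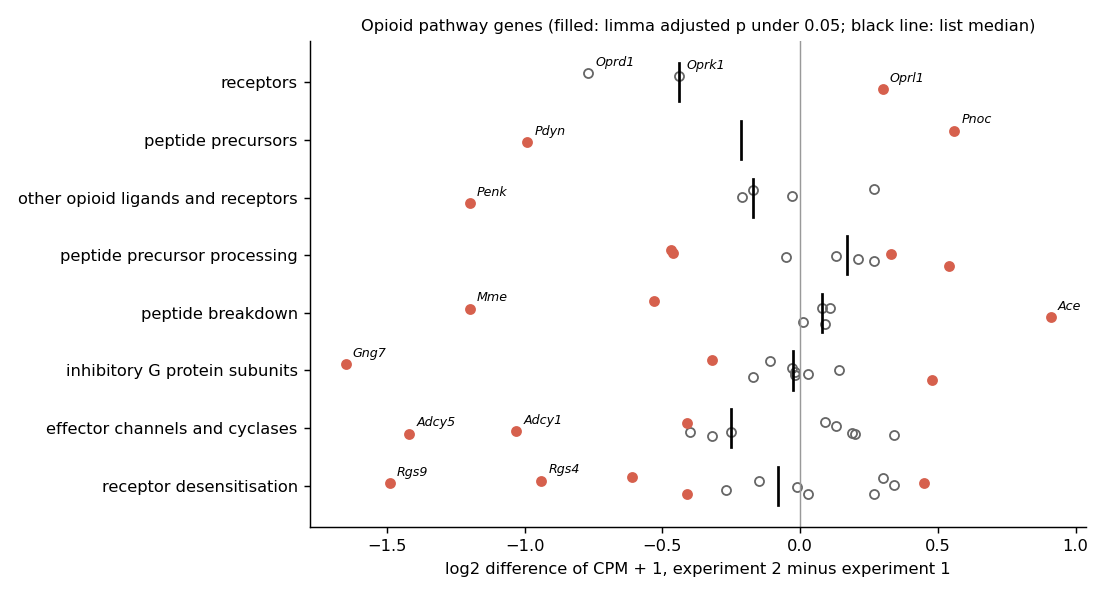
Difference between experiments (experiment 2 minus experiment 1, log2(CPM + 1)) of each tested gene of the receptors, precursors and 6 pathway lists, with filled points past the limma adjusted threshold, a black line at the median of each list and a grey line at 0. Penk, Mme, Gng7, Adcy5, Adcy1 and Rgs9 lie below -1, and Oprm1 is left out because it was not tested.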

How the data were processed

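RNA of 4 septal tissue pools was sequenced on an Illumina HiSeq from SMARTer ultra-low-input libraries, per the labels' protocols. The submitters' processing notes name HISAT2 2.1.0, SAMtools 1.3, HTSeq 0.9.1, R 4.0.5, limma 3.46.0 and build mm10, without the role or order of each. The values deposited by the authors are log2 CPM, 1 value per gene and library. They followed log2 of the read count plus 0.5 over the library total plus 1, scaled to CPM, which gave back whole reads within a tolerance of 0.001 reads.

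From these, CPM and log2(CPM + 1) were computed, 17 spike-in rows were left out, and 13912 of 15409 genes passed a minimum mean of 1 CPM. Genotypes, and in a separate fit experiments, were tested in R 4.3.3 by limma 3.58.1 (trended moderation, two-sided, Benjamini-Hochberg over all tested genes, threshold 0.05). Count models were not used, because the deposited unit is log2. Ratios between libraries have exact intervals at 95%. Other steps used scipy 1.17.1, pandas 2.3.3 and matplotlib 3.10.9 in Python 3.11.15. The genotype fits were also run on simulated counts that held no shift of a single pool. That run therefore does not show how the fits do on these data. Totals per library ran from 19988137 to 26210790 reads, so that 1 read was at most 0.05 CPM.

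The labels give the replicate number as the experiment, so the numbers pair the libraries. Deviations of same-numbered libraries from their genotype mean correlated at 0.72 across 13912 genes. The replicates of a genotype were no duplicate deposits (chi-square per degree of freedom 53.0 in TCRb-/- and 30.7 in WT). The genes and lists were chosen with earlier results of these data known. The 6 genes, Penk and Pomc were named whatever their values, and from each pathway list up to 3 genes with the largest called difference between experiments and up to 3 with the largest genotype difference among those whose genotypes did not overlap. For genes that varied by at least 1 on the log2 scale, the genes nearest in profile were named, and 1 of these is not reported here. Alternatives were the block, other pseudocounts, filters, scalings and weights, moderation without a trend, and leaving out each library.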

Additional observations from a re-analysis of the deposited data

Results flagged for a closer look

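The genotype order of Pdyn was opposite in the 2 experiments. TCRb-/- over WT was 1.24 (exact 95% counting interval 1.18 to 1.3) in experiment 1 and 0.472 (0.437 to 0.511) in experiment 2. With 1 library per genotype in each experiment the difference between these ratios was not tested.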

How the results depend on the processing

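With all 4 libraries, 143 of 150 values of single genes under the alternatives kept their direction and their side of the threshold, and 0 reversed. Without a mean-variance trend the experiment calls of Oprl1, Pdyn, Pnoc and Penk were lost, 0 of the 5 tested opioid genes were called, and 629 genes were called in all. Oprd1 passed under a pseudocount of 5 CPM, under the replicate block, and under both the block and voom weights. With the replicate block, 2 genes were called between genotypes, and 2 with the block and voom weights, none of them an opioid gene. The block changed no other call of the opioid genes. Under a filter of 10 CPM, Oprd1 and Pomc had no value, and Oprm1 had one only without a filter.

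Leaving out each library in turn gave 0 to 47 genes called between genotypes and 1406 to 3390 between experiments. Of the 5 tested receptor and precursor genes, which leave out Penk, it gave 0 to 1 called between genotypes and 0 to 5 between experiments. The genotype difference ran from -0.92 to -0.028 for Oprd1, from -0.52 to 0.16 for Oprk1, from -0.11 to 0.23 for Oprl1, from -1.22 to 0.46 for Pdyn, from -0.12 to 0.57 for Pnoc, from -1.55 to 0.38 for Penk and from -0.30 to 0.17 for Pomc, and Oprl1 was also at -0.07. The signs of these genes other than Oprd1 depend on which library is left out, and the cause was not tested. Pdyn at -1.22 and Penk at -1.55, both without TCRb-/- replicate 1, were called. A left-out library leaves 1 group with a single library, which is assumed to vary like the other. Oprm1 rests on 9 to 28 reads per library, and its counting intervals are wide.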

Other observations

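Across 13574 genes, which are not independent replicates, exon length and the difference between experiments had a Spearman's rho of -0.398, long transcripts being lower in experiment 2. Among the 500 genes nearest in exon length, the median difference between experiments was -0.17 for the neighbours of Oprm1, -0.02 for Oprd1, -0.19 for Oprk1, 0.01 for Oprl1, 0.06 for Pdyn and 0.12 for Pnoc. The differences of the genes themselves were -0.35, -0.77, -0.44, 0.30, -0.99 and 0.56. On the log2(CPM + 1) scale Oprk1 and Oprm1 were thus the closest to genes of their length. That scale understates the difference of Oprm1 at its low level, so its closeness cannot be judged from these values. The part of length was not tested.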
